A study of Mus musculus with 6 samples.

Results

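The genes described here encode the transcription factors that direct effector differentiation of T cells: Tbx21 (the gene of T-bet), Eomes, Runx1, Runx3, Hlx, Zeb2, Prdm1 (the gene of Blimp-1), Id2, Bhlhe40 and Gata3. They were chosen by name, and a gene was represented by the probe set that the array annotation assigns to that symbol alone, the brightest one where there were several. By this rule 9 of the 10 genes were measured, among 22180 genes in all. Zeb2 has probe sets only under more than 1 symbol and was not analysed here.

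RNA was taken from mouse splenic CD8+ T cells that had been sorted as naive and stimulated with antibodies to CD3 (1 µg/ml) and CD28 (3 µg/ml) over 4 days. The Tc1 cultures contained IL-12 for 3 days and the Tc17 cultures contained IL-6 and TGF-beta over the same time, and both then spent the remaining day in IL-2. The sources used here give no strain, age or genotype. Each group had 2 biological samples and an additional array labelled technical replicate 2. From its number alone that array was taken as a second reading of sample 2, so that 3 arrays per group gave 2 samples per group. The values are log2 intensities, and nothing in the labels says that the samples came from separate animals, so p-values measure only the spread between these samples, which may be technical.

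T-bet and Eomes are related T-box factors that activate the genes of interferon-gamma and of the cytotoxic granule in CD8+ T cells, with T-bet induced through IL-12 and interferon-gamma signalling. Hlx is a homeobox factor that acts with T-bet, and Runx3 is a Runt-domain factor that silences Cd4 and keeps the CD8 lineage. Blimp-1 and Zeb2 mark terminal effector differentiation, Id2 blocks the E proteins, and Bhlhe40 is a repressor of Il10. GATA3 is the lineage factor of type 2 cells and also serves in the maintenance of CD8+ T cells.

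The labelled cell type was checked on its markers. The 6 measured CD8 T cell markers, Cd8a, Cd8b1, Cd3d, Cd3e, Cd3g and Thy1, lay between 11.62 and 13.14 on every array, and none of the 6 was called different (median difference −0.03). The summed intensity of those markers (log2) ran from 15.28 to 15.36 over the Tc1 arrays and from 15.26 to 15.34 over the Tc17 arrays. Of them Cd8a (−0.13), Cd8b1 (−0.03) and Cd3d (−0.12) were lower on every Tc17 array, as 14.5% of all genes were. None of the markers of CD4 T cells (3), B cells (5 measured), macrophages and monocytes (6), dendritic cells (5) or NK cells (3 measured) was called, but some moved with the groups. Of the macrophage and monocyte markers 5 of 6 had differences above 0. Adgre1 (0.38), Csf1r (0.28) and Cd14 (0.25) were higher on every Tc17 array with an unadjusted limma p under 0.05 (adjusted p = 0.235, 0.299 and 0.319). Of all genes, 15.2% were higher on every Tc17 array, and 15.9% had an unadjusted limma p under 0.05 in either direction. Adgre1 and Cd14 lay below every array median on all arrays. The summed log2 intensity of the macrophage and monocyte markers ran from 10.08 to 10.59 in Tc1 and from 10.20 to 10.30 in Tc17. The summed B cell markers ran from 10.02 to 10.20 in Tc1 and from 10.46 to 10.60 in Tc17. Of these Cd79b, an antigen receptor chain gene, had a difference of 0.52 without overlap (limma adjusted p = 0.162) and passed in 3 of the 13 alternative settings described further on, whereas Blk was at −0.17 and Ms4a1 and Cd79a lay near or below the array medians. The summed NK cell markers ran from 7.17 to 7.28 in Tc1 and from 7.40 to 7.73 in Tc17, with Tyrobp at 0.49 without overlap (limma adjusted p = 0.254) and Klrb1c at 0.04. The summed dendritic cell markers overlapped (7.95 to 8.08 and 7.97 to 8.24), with Itgax at 0.40 and Siglech at 0.10. The CD4 T cell markers, with sums from 8.62 to 8.77 in Tc1 and from 8.46 to 8.70 in Tc17, all had differences below 0, the farthest being Cd40lg (−0.24). Of 6 mast cell and granulocyte markers 1 was called: Kit, a growth factor receptor gene, was higher in Tc17 by 1.32 ± 0.09 (log2, SE; limma adjusted p = 0.0133), while the other 5, with S100a8 (0.089) and Cpa3 (−0.087) the farthest from 0, lay below every array median on all arrays. Kit passed in none of the 4 fits that left out a sample. The part of these markers in the results below was not tested.

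Tbx21 was much lower in Tc17 than in Tc1, Prdm1, Eomes, Hlx and Gata3 were lower on every array without passing the test, and Runx1 was higher on every array without passing it. Runx3, Id2 and Bhlhe40 had overlapping arrays. Limma's moderated test, with p-values adjusted by Benjamini and Hochberg's method across the table's 41345 probe sets and called under 0.05, called 1 of the 9 genes lower, Tbx21, where 0.591% of all genes were called lower. It called 0 of the 9 higher, where 0.992% of all genes were. At an unadjusted p of 0.05, 6 of the 9 passed, against 15.9% of all genes. The 3 Tc17 arrays lay entirely below the 3 Tc1 arrays for 5 of the 9 genes (14.5% of all genes) and entirely above for 1 (15.2% of all genes). The median difference was −0.53 over the 9 genes and −0.01 over all 22180 genes.

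**Figure D1:**
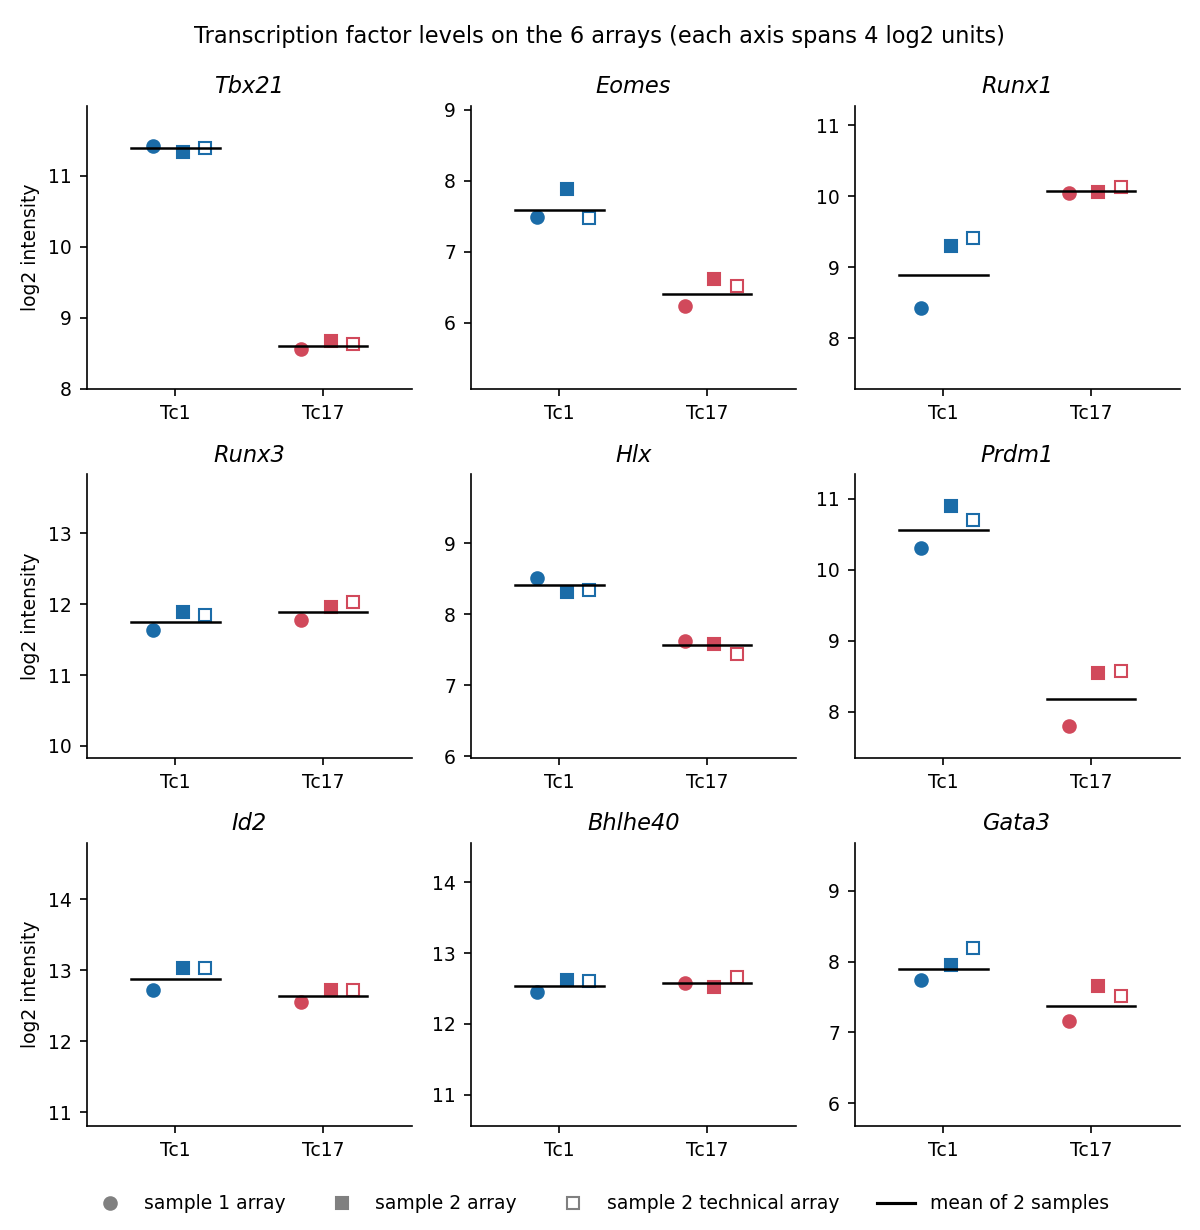
Log2 intensity of each of the 9 measured genes on the 6 arrays, with sample 1 as a circle, sample 2 as a square, its technical array as an open square and the mean of 2 samples as a line. Each vertical axis spans the same number of log2 units. The Tbx21 arrays sit between 11.33 and 11.42 in Tc1 and between 8.56 and 8.67 in Tc17, while the arrays of Runx3, Id2 and Bhlhe40 overlap.

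Tbx21 (probe set 17268445) had the widest separation of the 9 genes relative to the spread between its samples. Its log2 intensity was 11.42 in Tc1 sample 1 and 11.33 and 11.39 on the 2 arrays of Tc1 sample 2. In Tc17 it was 8.56 in sample 1 and 8.67 and 8.63 on the arrays of sample 2. The groups were separated by a gap of 2.66 between the closest arrays, whereas samples 1 and 2 differed by 0.06 in Tc1 and by 0.09 in Tc17. The means were 11.39 ± 0.04 and 8.60 ± 0.07 (log2, SD, n = 2), a difference of −2.79 ± 0.08 (SE; 95% confidence interval −3.00 to −2.58; limma adjusted p = 0.00272), which is 6.90-fold lower. Of 22180 genes, 57 had a larger absolute difference. Tbx21 was the only one of the 9 genes called under all 13 alternative settings, with differences from −2.83 to −2.74 and adjusted p up to 0.0317 in limma's test. Even in Tc17 it lay above every array median (6.04 to 6.09), although the arrays give no detection call.

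Eomes (probe set 17522876), the other T-box gene, was lower in Tc17 on every array. It measured 7.48 in Tc1 sample 1, 7.88 on the array of Tc1 sample 2 and 7.48 on its technical array. In Tc17 it measured 6.23 in sample 1 and 6.62 and 6.52 on the arrays of sample 2. The groups did not overlap, with a gap of 0.85, but the 2 arrays of Tc1 sample 2 differed by 0.41, more than samples 1 and 2 did after averaging (0.20). The difference was −1.18 ± 0.15 (SE; 95% confidence interval −1.57 to −0.79), which is 2.27-fold lower, and it missed the threshold in limma's test (adjusted p = 0.0583). With each array centred on its median the adjusted p was 0.0462 in limma's test, and with dim probe sets filtered out it was 0.0332. With the technical array left out it was 0.0933, and Eomes passed in 5 of the 13 alternative settings. The difference was −1.35 to −1.01 with each biological sample left out in turn.

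Hlx (probe set 17230715) measured 8.51 in Tc1 sample 1 and 8.31 and 8.34 on the arrays of Tc1 sample 2. In Tc17, sample 1 was at 7.63 and the arrays of sample 2 at 7.58 and 7.43. All Tc17 arrays were below all Tc1 arrays, by a gap of 0.68. The difference was −0.85 ± 0.10 (SE; 95% confidence interval −1.12 to −0.58; limma adjusted p = 0.0537), 1.80-fold lower and short of the threshold. It passed after quantile normalization (limma adjusted p = 0.0485) and with dim probe sets filtered out (0.0333). It missed after median centring (limma adjusted p = 0.0556) and with the technical array left out (0.0643). Hlx passed in 5 of the 13 alternative settings, and its difference was −0.95 to −0.76 with each biological sample left out in turn.

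Prdm1 (probe set 17240645), which encodes the repressor Blimp-1, had the second largest difference of the 9 genes and a wide spread between samples. In Tc1 it measured 10.31 in sample 1 and 10.90 and 10.70 on the arrays of sample 2. In Tc17 it measured 7.79 in sample 1 and 8.54 and 8.57 on the arrays of sample 2. The groups were apart by 1.74, and sample 1 was below sample 2 in both, by 0.49 in Tc1 and 0.76 in Tc17. The difference of −2.38 ± 0.31 (SE; 95% confidence interval −3.18 to −1.57) corresponds to 5.20-fold lower and missed the threshold (limma adjusted p = 0.0621). With dim probe sets filtered out the adjusted p was 0.0335 in limma's test, and with either biological sample of either group left out it was 0.0748 to 0.196.

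The sequence just before the RefSeq transcription start (assembly GRCm38.p6) was read for the genes in the RefSeq promoter table, which held 9 of the 10 genes (all but Bhlhe40). The windows are 250 bases long and end at the base before the start, and they are printed 5′ to 3′ on the gene's strand. Capitals mark the letters of a motif searched on both strands. These motifs were the T-box half-site GGTGTGA, the RUNX motif TGTGGT, the GATA motif AGATAA, the STAT motif TTCNNNGAA, the E-box CANNTG and the core GTGAAAG shared by Blimp-1 and interferon regulatory factors. Shown are the T-box pair Tbx21 (chr11:97115332-97115581, minus strand) and Eomes (chr9:118477939-118478188, plus strand), then Prdm1 (chr10:44458749-44458998, minus strand), because these 3 genes had the differences farthest below 0. The first of the 2 starts of Runx3 (chr4:135120395-135120644, plus strand) is shown because it was the one member window with the RUNX letters.
Tbx21: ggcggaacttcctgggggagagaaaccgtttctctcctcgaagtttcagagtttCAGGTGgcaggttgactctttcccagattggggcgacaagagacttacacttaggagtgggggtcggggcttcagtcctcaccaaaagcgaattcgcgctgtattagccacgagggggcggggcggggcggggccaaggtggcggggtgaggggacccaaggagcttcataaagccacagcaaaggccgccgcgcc
Eomes: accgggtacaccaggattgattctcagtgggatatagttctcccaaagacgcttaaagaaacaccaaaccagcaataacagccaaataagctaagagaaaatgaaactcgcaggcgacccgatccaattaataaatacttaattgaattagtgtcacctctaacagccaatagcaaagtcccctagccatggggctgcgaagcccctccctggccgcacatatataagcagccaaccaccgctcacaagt
Prdm1: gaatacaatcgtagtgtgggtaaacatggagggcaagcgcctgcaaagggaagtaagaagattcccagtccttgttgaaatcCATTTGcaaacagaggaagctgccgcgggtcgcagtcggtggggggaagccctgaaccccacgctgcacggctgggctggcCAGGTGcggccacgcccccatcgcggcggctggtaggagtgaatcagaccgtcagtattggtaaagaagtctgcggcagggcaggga
Runx3: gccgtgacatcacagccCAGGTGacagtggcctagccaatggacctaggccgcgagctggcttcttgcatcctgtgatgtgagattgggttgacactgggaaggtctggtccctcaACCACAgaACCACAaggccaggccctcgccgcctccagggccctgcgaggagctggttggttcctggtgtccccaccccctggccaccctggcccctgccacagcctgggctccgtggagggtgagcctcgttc

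The Tbx21 window held 1 E-box, beginning at base −196 relative to the start, and the Prdm1 window held 2, at −168 and −87. The Eomes window held none of the 6 motifs. The Runx3 window held the RUNX letters at −134 and −126 and an E-box at −233. Over all 14 windows of the 9 genes, E-box letters were in 5, the STAT letters in 2 (overlapping windows of Zeb2) and the RUNX letters in 1, and the T-box half-site, GATA and Blimp-1 letters in 0. Of all 32851 windows in the table, 66.2% held an E-box, 14% the RUNX letters, 9.99% the GATA letters, 7.02% the STAT letters, 3.57% the Blimp-1 core and 3.33% the T-box half-site. The Tbx21 window had 60.8% G and C bases and 16 CpG dinucleotides, the Eomes window 46.4% and 8, and the Prdm1 window 59.2% and 15. A match of letters is a description of these windows and does not show binding.

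Of the 2 Runt-domain genes, Runx1 separated the groups and Runx3 did not. Runx3 (probe set 17419840) measured 11.63, 11.89 and 11.85 on the Tc1 arrays and 11.77, 11.97 and 12.03 on the Tc17 arrays. These ranges overlap, and the difference was 0.14 ± 0.13 (SE; 95% confidence interval −0.20 to 0.48; limma adjusted p = 0.741). Runx1 (probe set 17332236) measured 8.42 in Tc1 sample 1 and 9.29 and 9.41 on the arrays of Tc1 sample 2, against 10.05, 10.07 and 10.13 on the Tc17 arrays. The Tc17 arrays were close together and all above the Tc1 arrays, whereas the Tc1 samples differed by 0.93, the widest sample difference among the 9 genes. The difference was 1.19 ± 0.31 (SE; 95% confidence interval 0.36 to 2.01; 2.27-fold higher), with a limma adjusted p of 0.234 that misses the threshold. It was 0.72 without Tc1 sample 1 and 1.65 without Tc1 sample 2, and it passed in neither fit. Cbfb, the gene of the subunit that both proteins bind, had a difference of −0.13 (limma adjusted p = 0.579).

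Id2 and Bhlhe40 did not separate the groups. Id2 (probe set 17280310) measured 12.72, 13.03 and 13.04 on the Tc1 arrays and 12.56, 12.73 and 12.72 on the Tc17 arrays. Tc1 sample 1 lay within the Tc17 range, and the difference was −0.24 ± 0.14 (SE; 95% confidence interval −0.60 to 0.12; limma adjusted p = 0.571). Bhlhe40 (probe set 17461414) measured 12.45, 12.62 and 12.61 in Tc1 and 12.58, 12.52 and 12.66 in Tc17. Its difference of 0.05 ± 0.09 (SE; 95% confidence interval −0.18 to 0.28; limma adjusted p = 0.87) was the smallest of the 9, and 30% of all genes had a smaller one. Changes between −0.18 and 0.28 on the log2 scale are inside that interval.

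Gata3 had 2 probe sets of its own. The brighter one (17381533), which represents the gene, measured 7.74 in Tc1 sample 1 and 7.95 and 8.19 on the arrays of Tc1 sample 2. In Tc17, sample 1 was at 7.16 and the arrays of sample 2 at 7.66 and 7.51. The groups did not overlap but were apart by 0.08 only, and the difference was −0.53 ± 0.19 (SE; 95% confidence interval −1.03 to −0.03; limma adjusted p = 0.353). It was −0.32 without Tc17 sample 1. The other probe set (17366644) had a difference of −0.20 ± 0.08 (SE; limma adjusted p = 0.382), of the same sign and likewise not called.

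**Figure D2:**
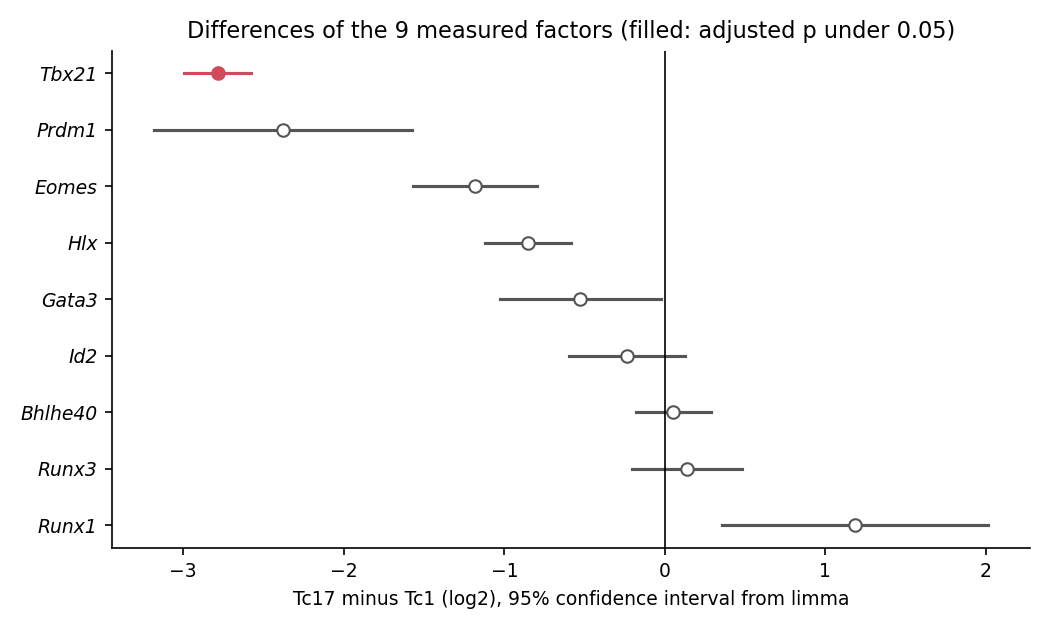
Tc17 minus Tc1 difference of each gene on the log2 scale (horizontal axis) with its 95% confidence interval from limma, ordered by size, filled where the adjusted p was under the threshold. Tbx21, at −2.79, is the one filled point, and the intervals of Runx3, Id2 and Bhlhe40 include 0.

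Biological samples differed more than the arrays taken as repeats did. The 2 arrays of sample 2 differed by a median of 0.07 over 18 comparisons (9 genes in 2 groups), and the averaged samples 1 and 2 by a median of 0.21. For 7 of the 9 genes (Eomes, Runx1, Runx3, Prdm1, Id2, Bhlhe40 and Gata3) sample 1 was below sample 2 in Tc1 and in Tc17, while Hlx was above in both and Tbx21 had no common direction. The group difference was larger than the sample differences for Tbx21, Eomes, Runx1, Hlx, Prdm1 and Gata3 and not for the other 3.

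Differences within an array between paired genes show how unequally they moved, and they say nothing of which transcript is more abundant. The Tbx21 intensity exceeded that of Eomes by 3.93, 3.45 and 3.91 on the Tc1 arrays and by 2.32, 2.05 and 2.11 on the Tc17 arrays (log2). The groups did not overlap, and the change was −1.61, so the Tbx21 intensity was lower in Tc17 by more than that of Eomes was. Eomes lay at 6.23 to 6.62 on the Tc17 arrays, just above the array medians (6.04 to 6.09). The part of this low level in its smaller change was not tested. Prdm1 against Bcl6, the gene of a repressor that opposes Blimp-1, gave 3.80, 2.84 and 2.64 in Tc1 and 0.25, −0.13 and −0.33 in Tc17, a change of −3.26. Bcl6 alone did not separate the groups: it measured 6.51 in Tc1 sample 1 and 8.06 on both other Tc1 arrays, against 7.54, 8.68 and 8.90 in Tc17. Id2 against Id3, another gene of an E protein inhibitor, changed by −1.45, and Runx1 against Runx3 by 1.05. Each of the 4 changes had a two-sided exact permutation p of 0.333 (0.333 after Benjamini-Hochberg adjustment over the 4 pairs), the smallest that 2 against 2 samples can give.

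**Figure D3:**
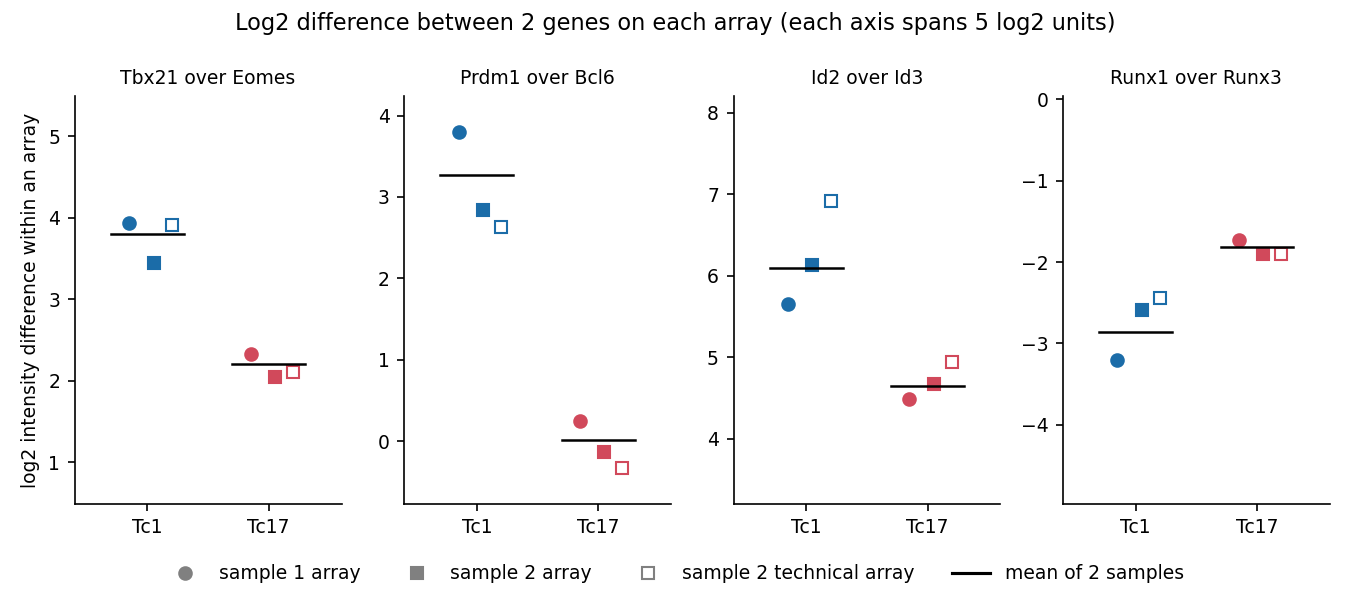
Difference in log2 intensity between 2 genes on each array (vertical axis, the same span in each panel), for Tc1 and Tc17, with symbols for sample 1, sample 2 and its technical array and a line at the mean of 2 samples. The Tc1 and Tc17 arrays do not overlap in any of the 4 panels, with Prdm1 over Bcl6 moving from a mean of 3.27 to 0.01.

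Among 16 measured relatives and partners of these factors (Runx2 and Zfp683 were not measured) none passed the test, with a median difference of 0.03. Id3 had the largest difference: it measured 7.06, 6.90 and 6.12 on the Tc1 arrays and 8.08, 8.06 and 7.78 on the Tc17 arrays. The difference was 1.21 ± 0.20 (SE; limma adjusted p = 0.103), and with the technical arrays left out it was 1.08 and passed (limma adjusted p = 0.0255). Id3 passed in 4 of the 13 alternative settings. Zfpm1, which encodes the GATA cofactor FOG1, had a difference of −0.47 (limma adjusted p = 0.37), which was −0.25 without Tc1 sample 1.

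Of 22 genes known as targets of T-bet or Eomes, 10 were called lower in Tc17 and none higher, against 0.591% and 0.992% of all genes. The median difference was −1.24, with 18 differences below 0 and 4 above. Xcl1 was the farthest above 0, at 0.85 without overlap of the arrays (limma adjusted p = 0.2). The others above 0 were Cx3cr1 (0.27), Ccl3 (0.26) and Cxcr3 (0.16), none of them called. The list holds genes already known to differ in these samples, so its count is not independent evidence. Largest among those called were the changes of Ifng, the cytokine gene that T-bet activates (−5.49), and Gzmk, a granzyme gene (−4.07). Serpinb9, the gene of a granzyme B inhibitor (−4.00), Ccl5, a chemokine gene (−2.87), and Prf1, the perforin gene (−2.24), followed. The other called genes moved less. Fasl, the gene of a death ligand, measured 10.40, 10.31 and 10.30 in Tc1 and 8.98, 8.56 and 8.61 in Tc17, a difference of −1.57 ± 0.15 (SE; limma adjusted p = 0.0328). Klrk1, the gene of the receptor NKG2D, measured 11.48, 11.24 and 11.48 in Tc1 and 10.01, 10.26 and 10.13 in Tc17. Hopx (−1.14), a homeodomain-only protein gene, Nkg7 (−1.11), a cytotoxic granule gene, and Klrg1 (−0.91), an inhibitory receptor gene of terminal effectors, fell too. The Tc17 mean of Klrg1, 5.70, was below every array median, so its fold is one of intensities.

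The other listed targets were not called. Gzma and Il18r1 had the largest differences among the uncalled ones, −2.48 and −2.47 (limma adjusted p = 0.308 and 0.0744). Gzma was −1.27 without Tc17 sample 1 and −3.69, and called, without Tc17 sample 2 (limma adjusted p = 0.0262). Il18r1 was −2.98 and called without Tc1 sample 1 (limma adjusted p = 0.0411). With a Tc1 sample left out, 7 (sample 1) or 4 (sample 2) of the 22 were called lower, and with a Tc17 sample left out 3 (sample 1) or 5 (sample 2). Ifng, Prf1 and Serpinb9 passed in all 4 of those fits, and Fasl, Klrk1, Hopx, Nkg7 and Klrg1 in none.

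Genes that Blimp-1 is known to repress had a median difference of 0.62 over 10 measured genes, and 9 of 10 differences were above 0. Bach2, a repressor gene, rose from 8.48, 8.66 and 8.54 on the Tc1 arrays to 9.99, 9.92 and 9.92 on the Tc17 arrays. Ccr7 (1.61) and Cxcr5 (2.16), genes of lymphoid homing receptors, rose as well, and none fell. The differences of Id3 (1.21) and Bcl6 (0.88) missed the threshold, at limma adjusted p of 0.103 and 0.667. Bcl6 was 0.11 without Tc1 sample 1, 1.65 without Tc1 sample 2, 1.5 without Tc17 sample 1 and 0.26 without Tc17 sample 2. Without sample 1 or 2 of Tc1, 1 or 0 were called, and without sample 1 or 2 of Tc17, 0 or 1. After quantile normalization 1 was called.

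Of 9 measured genes linked to Runx3, Itgae, the CD103 integrin gene, rose (5.19), with a Tc1 mean of 5.77 that was below every array median. Cd8a (−0.13), Cd8b1 (−0.03), Cd4 (−0.06) and Zbtb7b (−0.13), the gene of the CD4 lineage factor, were not called. Cxcr6 and Cd69, both residency-linked genes, were at −0.96 and 0.65, with limma adjusted p of 0.0853 and 0.206. The median of the list was −0.06.

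Of 9 measured genes linked to GATA3 (Il1rl1 was not measured), 3 were called higher and 0 lower, against 0.992% and 0.591% of all genes. The median difference was 0.18, with 7 differences above 0 and 2 below. Il24, a cytokine gene, rose from 8.94, 8.56 and 8.34 on the Tc1 arrays to 11.41, 11.16 and 11.12 on the Tc17 arrays (2.58 ± 0.20 SE; limma adjusted p = 0.0196). The chemokine receptor genes Ccr4 (2.53) and Ccr8 (2.16) were called higher too. The type 2 cytokine genes Il4, Il5 and Il13 had differences of 0.03, 0.05 and −0.07 and were not called, and Il4 and Il5 lay below every array median on all arrays. Epas1 and Cish had differences of −0.69 and 0.65 and did not pass, and Epas1 was −0.38 without Tc1 sample 2. Without Tc1 sample 1, 2 of the 3 stayed called, and 0 without any of the other 3 samples.

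None of 5 measured genes linked to Bhlhe40 was called. Il10, which Bhlhe40 represses, measured 11.60, 10.95 and 11.06 in Tc1 and 9.34, 9.65 and 9.66 in Tc17, with no overlap (−1.81 ± 0.23 SE; limma adjusted p = 0.0625). Csf2, a cytokine gene, had a difference of −0.19 and was at 6.26 and 6.08 in the group means.

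**Figure D4:**
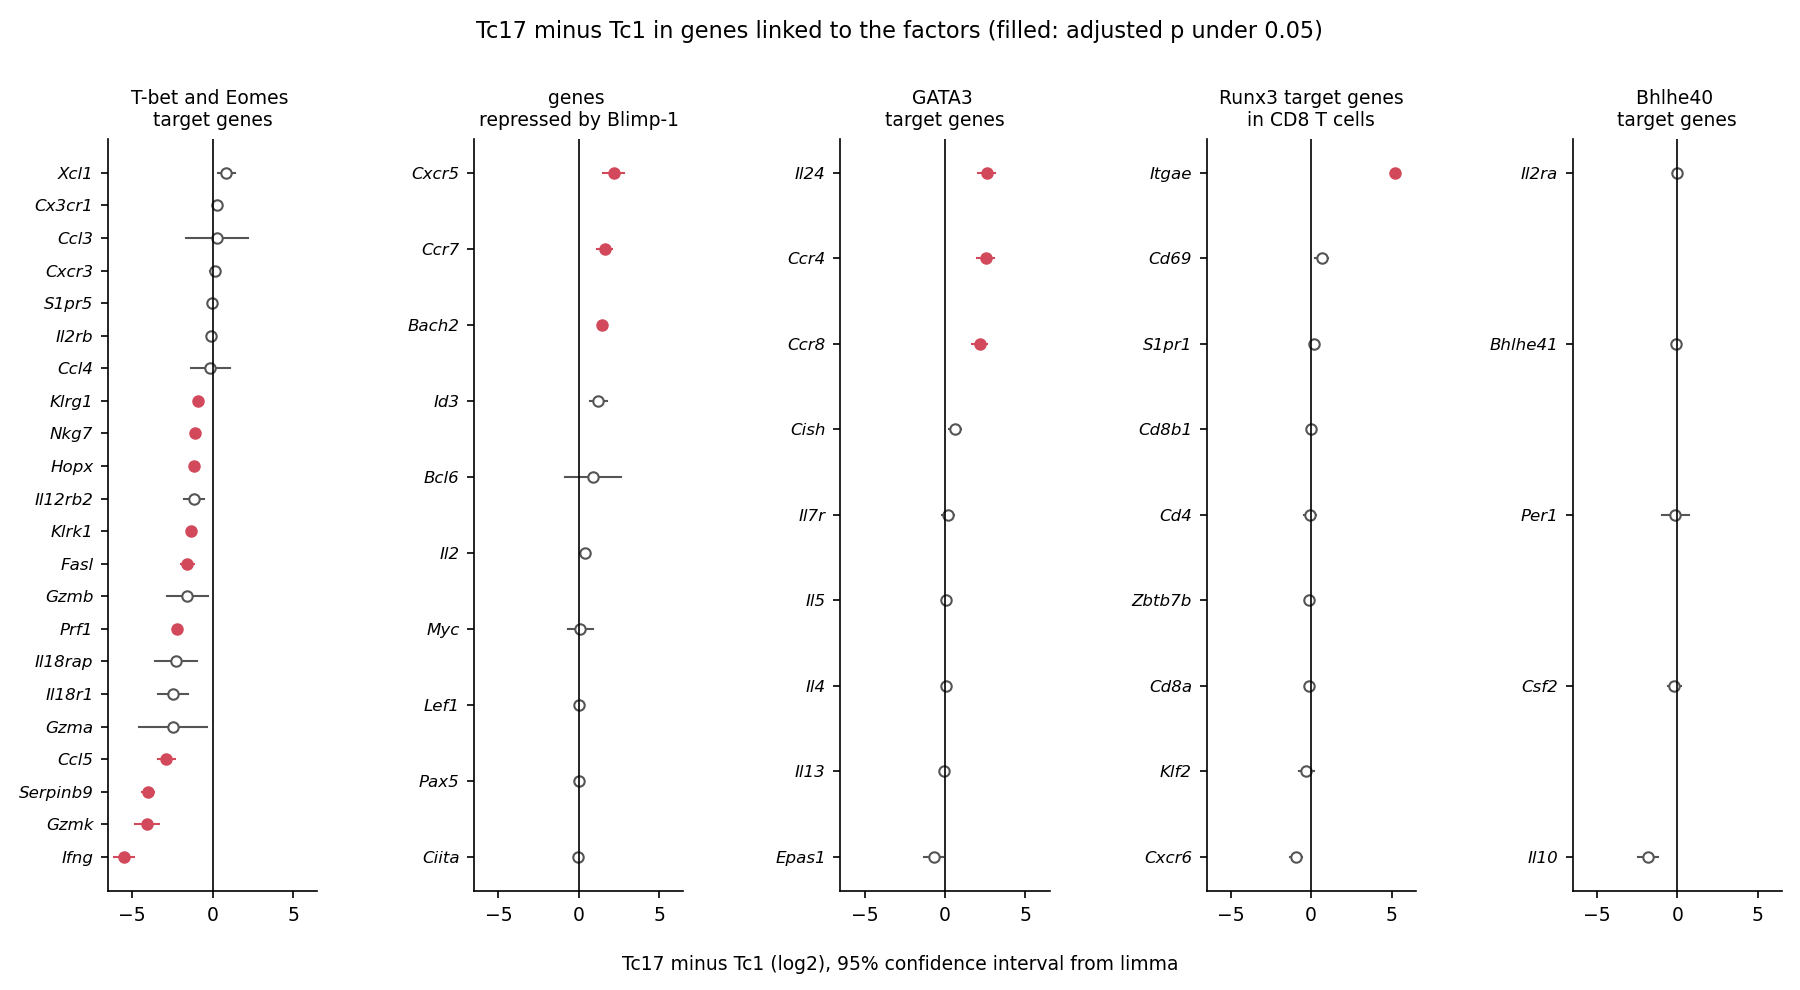
Tc17 minus Tc1 differences (log2, horizontal axis, the same in all panels) with 95% confidence intervals from limma for genes linked to T-bet and Eomes, Blimp-1, GATA3, Runx3 and Bhlhe40, filled where the adjusted p was under the threshold. Filled points lie below 0 for 10 of 22 T-bet and Eomes targets and above 0 for 3 of 10 genes repressed by Blimp-1.

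Genes of the cytokine pathways that act on these factors were also read. Of 19 measured genes, 3 rose and none fell, with a median of 0.15. Tgfbr1, a TGF-beta receptor chain, measured 7.63, 7.80 and 7.80 in Tc1 and 8.73, 8.55 and 8.75 in Tc17 (0.97 ± 0.09 SE; limma adjusted p = 0.0334). The others were Il6ra, an IL-6 receptor chain (2.67), and Ifngr2, an interferon-gamma receptor chain (4.00). Il12rb2, the inducible chain of the IL-12 receptor, measured 12.35, 12.38 and 12.44 in Tc1 and 11.57, 10.85 and 10.89 in Tc17. Its arrays did not overlap, and its difference of −1.16 missed the threshold (limma adjusted p = 0.157). Il6st, the shared chain of the IL-6 receptor family, had a difference of −0.79 (limma adjusted p = 0.174). With each sample left out in turn Ifngr2 passed 4 times and Il6ra and Tgfbr1 0 times.

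The genes whose values over the 6 arrays lay closest to those of Tbx21, by Euclidean distance of log2 values centred on each gene's mean, were P2ry14 (distance 0.32; difference −2.80), Etv5 (0.44; −2.91) and Prag1 (0.49; −3.09). All 3 were called lower in limma's test, and the mean of the probe sets of Etv5 gave −1.72. Closest to Eomes were Sp4 (0.31), Ppm1h (0.33) and Cxcr6 (0.36), with differences between −1.18 and −0.96, none of them called. Closest to Prdm1 were Plxnc1 (0.41), Gpx8 (0.41) and Itih5 (0.44), of which Plxnc1 and Gpx8 were called lower. Closest to Gata3 were Kansl1l (0.13), Entpd5 (0.15) and Atad5 (0.16). These are descriptions over 6 arrays that share 4 samples. The neighbours were picked for values like those of the named genes on the same arrays, so their calls are not separate evidence.

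**Figure D5:**
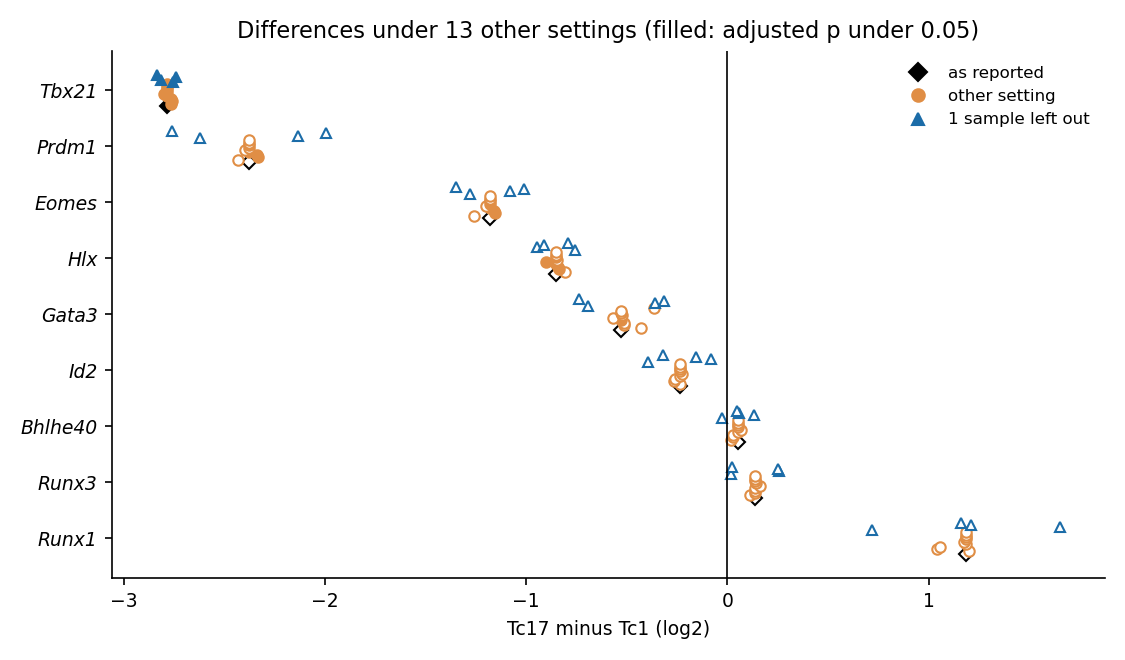
Tc17 minus Tc1 difference (log2) of each of the 9 genes as reported (diamond), under other processing settings (circles) and with 1 biological sample left out (triangles), filled where the adjusted p was under the threshold. Tbx21 is filled throughout, whereas Runx1 runs from 0.72 to 1.65 and is never filled.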

How the data were processed

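The 6 Affymetrix arrays carried biotin-labelled RNA in 1 colour. The deposited values are log2 intensities. Per the submitters' processing notes, the authors used RMA and Partek, with no versions or roles given. RMA corrects background, normalizes by quantiles and summarizes probe sets. The genome build was not given in the sources used here.

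The technical array was averaged with sample 2 of its group. Tc17 was compared with Tc1 on all 41345 probe sets, unfiltered, by lmFit and eBayes of limma (version 3.58.1, under R 4.3.3). The procedure was tested on simulated data. Symbols came from the platform annotation. Alternatives changed the use of the technical array, the replicate number as a block, normalization, a filter on level, moderation, averaged probe sets and each sample left out. Named were all measured members, every called gene of each other list with its 2 largest uncalled differences, and the 3 genes nearest to Tbx21, Eomes, Prdm1 and Gata3, passing over provisional symbols. The members, lists and pairs were chosen with earlier results of these data known. The plots used matplotlib 3.10.9, with pandas 2.3.3.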

Additional observations from a re-analysis of the deposited data

How the results depend on the processing

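The count of genes called lower was 1 as reported and with each biological sample left out in turn (1 to 1). It was 4 with the 6 arrays as separate samples, with the biological sample as a random block and with the filter on level, and 2 after quantile normalization (Tbx21 and Hlx) and after median centring (Tbx21 and Eomes). The share of all genes called lower rose in the same settings, from 0.591% to 3.36% with separate arrays, 3.00% with the random block and 1.58% of the 13326 genes left by the filter, and was 0.568% after quantile normalization and 0.622% after median centring. Counting the technical array as a sample adds degrees of freedom, and the filter tests fewer probe sets. The part of either in these counts was not tested. No setting called any of the 9 genes higher. With the replicate number as a block the count was 5 (Tbx21, Eomes, Hlx, Prdm1 and Gata3), where 1.99% of all genes were called lower. The labels do not say that equal numbers mark a shared animal or day. The deviations of samples 1 from their group means correlated at 0.31 over all probe sets, from 2 pairs.

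The direction of the 9 differences was kept under all 13 settings, except that Bhlhe40 was −0.030 without Tc1 sample 1 (−0.030 to 0.13 over the samples left out). Csf2 was 0.22 with averaged probe sets, and −0.41 to 0.030 with each sample left out in turn, above 0 without Tc17 sample 1. The cause was not tested. The alternatives were applied to the other lists and to the pairs after the data had been seen. The number of arrays limits every difference, and no array gave a detection call.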
